A study of Rattus norvegicus with 9 samples.

Results

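The 59 genes described here are the interleukins and interleukin receptors detected in rat knee tissue, intact or 1 week after sham or meniscal surgery. They were chosen by name: of the 17602 genes in the deposited table, 69 have a symbol made of Il and a number, and 59 of these were above 0 in at least 3 of the 9 libraries. The 59 comprise 20 ligands, 37 receptors and 2 genes that are neither, Il18bp (a secreted protein that binds IL-18) and Il4i1 (a secreted amino acid oxidase). The 10 genes left out were 7 ligands (Il17a, Il1f10, Il2, Il20, Il24, Il25 and Il5) and 3 receptors (Il1rapl2, Il20ra and Il5ra), none of which exceeded 0.71 TPM in any library. TPM is an abundance scaled for transcript length and for the total of a library, so levels can be compared between genes.

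The tissue came from wild-type male Lewis rats aged 10 to 12 weeks, and each of the 3 groups had 3 libraries. The intact group was synovium, the lining of the joint, from knees that had no surgery. The sham group was synovium collected 1 week after the joint capsule was opened and closed. The pMx group was the tissue growing back 1 week after partial medial meniscectomy, removal of part of the medial meniscus, and the synovium around it had been cut away. Sham and pMx therefore differed both in the operation and in the tissue sampled, and these cannot be told apart. The labels call the 3 samples of a group biological replicates without saying that each came from its own animal, so the p-values measure the spread between these samples. RNA integrity, as the study lists it for each sample, also differed between the groups without overlap, lowest in intact and highest in pMx, and its part in the results was not tested.

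Interleukins are secreted proteins through which leukocytes and stromal cells signal to one another. Most act through a receptor of paired chains, one that recognizes the ligand and one that is often shared: gp130 (Il6st) in most of the IL-6 family, the common gamma chain (Il2rg) in the IL-2 family, and the accessory protein Il1rap for most of the IL-1 family. In the joint, IL-1 and IL-6 are best known as drivers of synovitis and of cartilage breakdown, and decoy receptors, binding proteins and the antagonist Il1rn hold some of these signals back.

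The 250 bases before the annotated transcription start are printed for 4 genes whose levels carry the results below, a ligand and receptor pair whose levels moved in opposite directions (Il33 and Il1rl1) and 2 further ligands past the fold threshold in pMx versus sham, one higher and one lower (Il11 and Il15). They are from RefSeq on the rat build GRCr8, lie upstream of the gene by construction, and are all on the plus strand; the deposited values were made on another build, mRatBN7.2. Capitals mark a match to AP-1 (TGANTCA), the one motif of those searched that was found in these windows.
Il33, chr1:237115323-237115572: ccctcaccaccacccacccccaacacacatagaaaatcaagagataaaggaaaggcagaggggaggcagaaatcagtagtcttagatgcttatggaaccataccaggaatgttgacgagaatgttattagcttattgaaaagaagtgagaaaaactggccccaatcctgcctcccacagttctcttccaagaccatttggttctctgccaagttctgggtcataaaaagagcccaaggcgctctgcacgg
Il1rl1, chr9:50203388-50203637: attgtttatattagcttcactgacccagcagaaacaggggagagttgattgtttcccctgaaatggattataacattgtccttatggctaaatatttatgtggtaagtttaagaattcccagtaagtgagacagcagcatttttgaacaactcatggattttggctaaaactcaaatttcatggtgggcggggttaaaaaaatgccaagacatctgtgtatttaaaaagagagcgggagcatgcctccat
Il11, chr1:78098372-78098621: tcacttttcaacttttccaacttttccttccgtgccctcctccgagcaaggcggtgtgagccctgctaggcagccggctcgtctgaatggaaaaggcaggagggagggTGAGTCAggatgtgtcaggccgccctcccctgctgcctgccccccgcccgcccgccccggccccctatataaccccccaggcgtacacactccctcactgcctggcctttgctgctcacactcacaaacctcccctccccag
Il15, chr19:42544456-42544705: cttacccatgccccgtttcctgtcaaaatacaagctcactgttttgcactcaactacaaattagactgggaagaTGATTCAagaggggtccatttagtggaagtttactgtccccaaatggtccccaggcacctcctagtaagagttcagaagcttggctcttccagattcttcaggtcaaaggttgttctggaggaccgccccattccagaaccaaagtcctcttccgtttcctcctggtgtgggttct
The match lies at bases -142 to -136 in Il11 and at -176 to -170 in Il15, counted from the start site. Motifs were searched on both strands: AP-1, STAT (TTCNNNGAA), the cAMP response element (TGACGTCA) and NF-kB by its consensus. Of the 47 members with an entry, 5 (10.6%) held AP-1, against 6.34% of 33469 promoters of the same length. STAT was found in 3 members (6.38%, against 7.67%), the cAMP response element in 2 (4.26%, against 1.59%) and NF-kB in 7 (14.9%, against 6.33%). A match is only these letters in this window, and it was not examined whether any factor binds there.

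The interleukin genes held a small part of each library. Summed over the 20 ligands, the level was 217 to 259 TPM in intact, 224 to 238 in sham and 124 to 127 in pMx. Over the 37 receptors it was 597 to 803, 663 to 692 and 534 to 583 TPM. The mean over the 9 libraries was 10 TPM or more for 21 members (5 ligands, 15 receptors and Il18bp) and under 1 TPM for another 21, and 52 were above 0 in all 9 libraries. The 5 abundant ligands were Il33, Il18, Il34, Il16 and Il15. Il1a, by contrast, was at or below 0.06 TPM in every library.

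Differences were tested with limma on log2(TPM + 1) over all 16512 genes above 0 in at least 3 libraries, and a gene counted as changed when its Benjamini-Hochberg adjusted p was below 0.05. In pMx versus sham, 11 of the 59 members rose (18.6%) and 15 fell (25.4%), against 17.7% and 18.9% of all genes tested. With the further condition of an absolute log2 fold change above 1, the threshold of the study's methods, 3 members rose (Il11, Il18rap and Il1rl1; 5.08%) and 4 fell (Il33, Il15, Il20rb and Il11ra1; 6.78%), against 3.36% and 4.85% of all genes. These shares were not tested against the background. The median log2 fold change was -0.06 over the members and -0.01 over all genes. After quantile normalization 15 members rose and 9 fell, and over all genes the calls moved the same way, from 2926 higher and 3120 lower to 3719 and 2851. Leaving out sham replicate 3 or pMx replicate 2 left 4 members higher, leaving out pMx replicate 1 left 6 and pMx replicate 3 left 7. Without pMx replicate 3, 8 members were lower. Calls over all genes dropped in these 4 fits too, to between 2083 and 2468 higher, and to 2469 lower without pMx replicate 3.

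In sham versus intact, 11 members rose (18.6%) and 4 fell (6.78%), against 6.73% and 5.97% of all genes. Past the fold threshold as well, 3 rose (Il1rl1, Il1rn and Il7) and 1 fell (Il12a), against 1.42% and 0.533% of all genes. The number higher was 5 without sham replicate 1 and 4 without sham replicate 2, where the number over all genes dropped from 1112 to 424 and 384. The number lower was 0 without sham replicate 1 or sham replicate 3, although 6 members then had an unadjusted p below 0.05 in limma, and it was 1 without intact replicate 1 or 2, sham replicate 2 or pMx replicate 2. Over all genes these fits called 244 to 726 lower, against 985. Without intact replicate 3, 6 members and 1937 of all genes were lower. In pMx versus intact, 21 members rose (35.6%) and 13 fell (22.03%), against 23.4% and 27.1% of all genes, and 6 and 7 were past the fold threshold, against 6.4% and 7.89%. The sham group is shared by the first pair of comparisons and the intact group by the last pair, so these counts are not independent of each other.

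**Figure D1:**
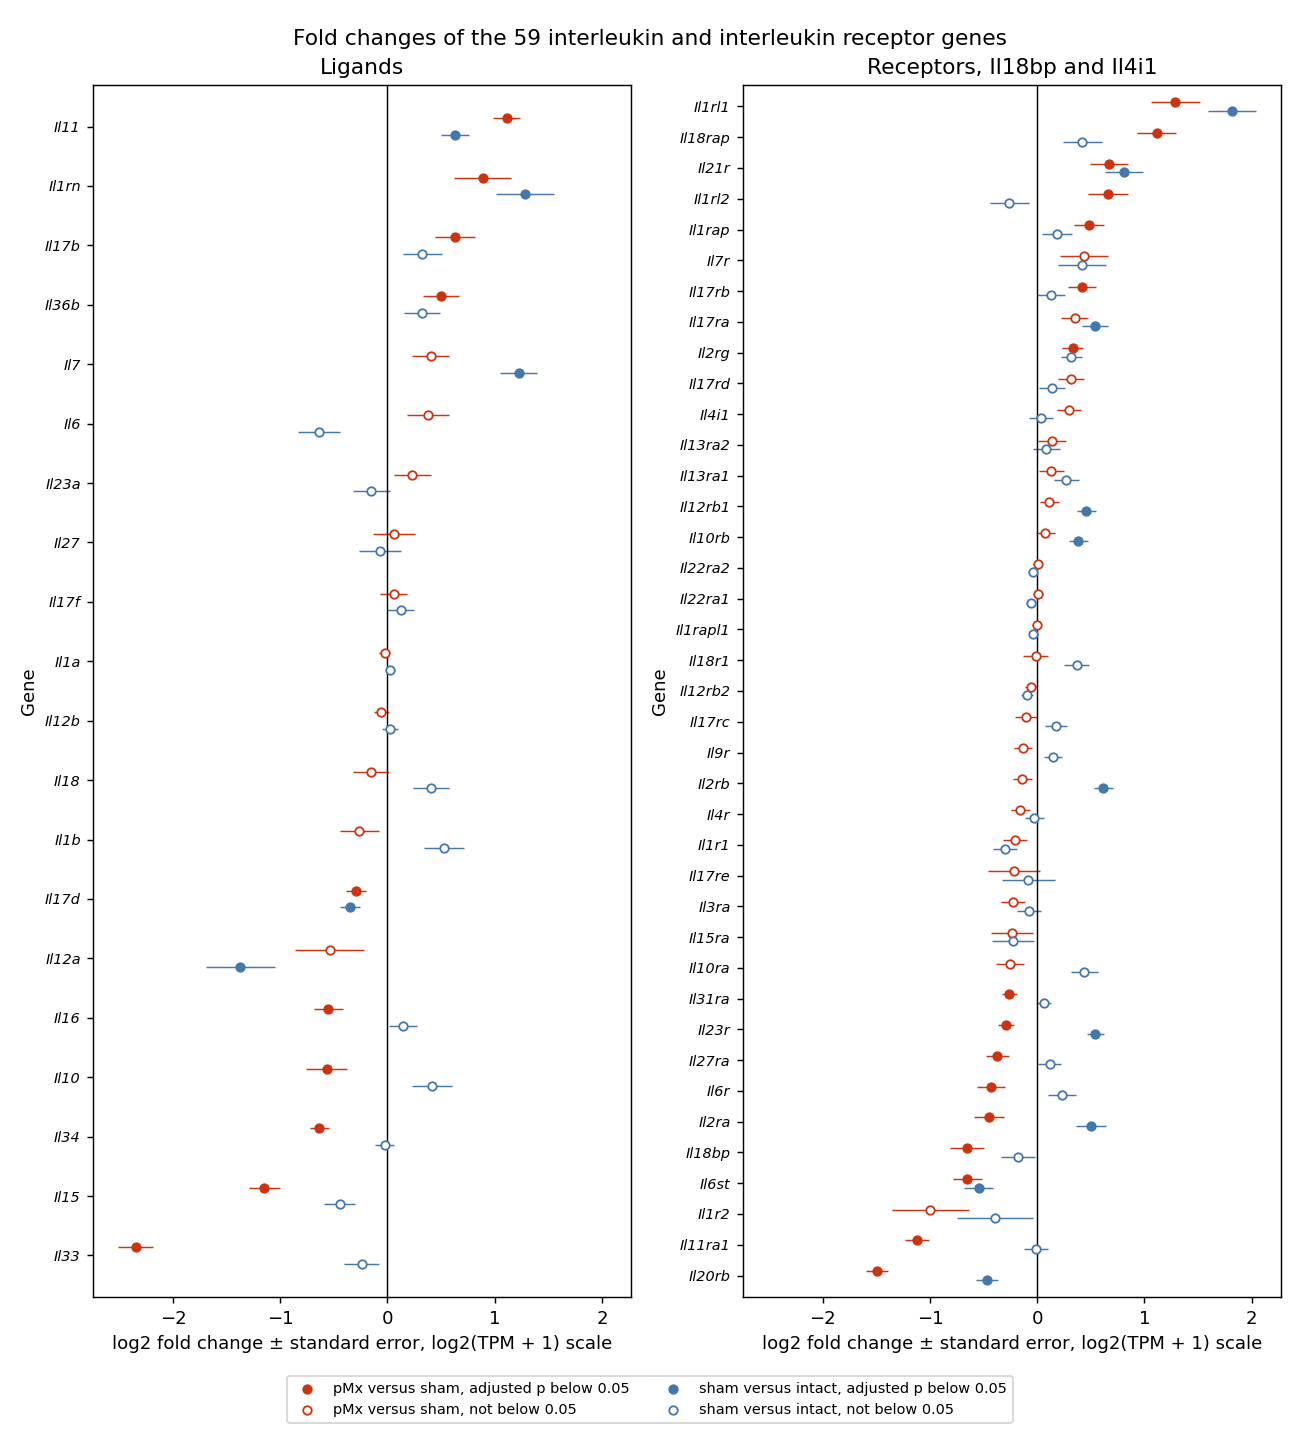
Log2 fold change of log2(TPM + 1) for the members, red for pMx versus sham and blue for sham against intact, with standard errors from limma and with filled points where the adjusted p was below 0.05. Il33 and Il20rb lie farthest to the low side in pMx versus sham, and Il1rl1, Il18rap and Il11 farthest to the high side.

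Among the ligands, Il33 had the largest fall in pMx versus sham on the log2(TPM + 1) scale, although the ratio of means fell more for the rare Il10. IL-33 is an alarmin, a cytokine stored in the nuclei of stromal, endothelial and epithelial cells and released when they are damaged. Its level was 141, 134 and 112 TPM in the intact libraries, 106, 103 and 116 in sham and 23.4, 24 and 15.2 in pMx. No pMx library came near the others, while intact and sham overlapped. The mean fell 5.20-fold from sham to pMx (log2 fold change -2.35, standard error 0.17, adjusted p = 3.84e-05), and sham versus intact was -0.24 (adjusted p = 0.385). Il33 was the most abundant ligand in intact and sham and ranked behind Il18 and Il34 in pMx, where its range overlapped that of Il34.

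The receptor of IL-33, Il1rl1 (ST2), had the opposite pattern. ST2 is carried by mast cells, group 2 innate lymphoid cells and regulatory T cells, and a secreted form made by stromal cells acts as a decoy; gene-level values do not separate these forms. Il1rl1 stood at 4.55, 3.87 and 3.08 TPM in intact, 18.4, 20.8 and 10.4 in sham and 38.8, 39.7 and 42.4 in pMx, with no overlap between any of the groups. It rose 4.31-fold from intact to sham (log2 fold change 1.82, standard error 0.23, adjusted p = 0.00447) and 2.44-fold from sham to pMx (1.29, standard error 0.23, adjusted p = 0.00252). Within a library, the ratio of Il33 to Il1rl1 was therefore 31.0 to 36.2 in intact, 4.97 to 11.2 in sham and 0.359 to 0.605 in pMx, so the ligand transcript outnumbered the receptor transcript in every synovium library and was outnumbered in every pMx library.

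Markers of mast cells, a carrier of ST2, were at their lowest where Il1rl1 was at its highest. Of the 7 mast cell markers tested, 6 were lower in pMx than in sham, and their summed level was 117 to 195 TPM in sham and 9.67 to 13.0 in pMx, after 40.8 to 105 in intact. Of all genes tested, 18.9% were lower in pMx versus sham, which is the background for each marker list in this paragraph. Cpa3, a mast cell protease, was 49.8, 38.5 and 72.9 TPM in sham and 1.75, 1.31 and 0.64 in pMx. Adipocyte markers moved in the same direction as Il33 from sham to pMx, with all 6 lower and sums of 1039 to 1360 TPM in sham against 47.6 to 64.1 in pMx. In intact the adipocyte sums were widely spread, from 210 to 1565 TPM, and none of the 6 markers passed in sham versus intact. Endothelial markers summed to 512 to 581 TPM in sham and 481 to 615 in pMx, with 2 of 6 lower (Vwf and Tek) and 4 not passing. The part of these cell types in the Il33 and Il1rl1 results was not tested, and in bulk tissue fewer cells of a type and less RNA per cell cannot be told apart.

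**Figure D2:**
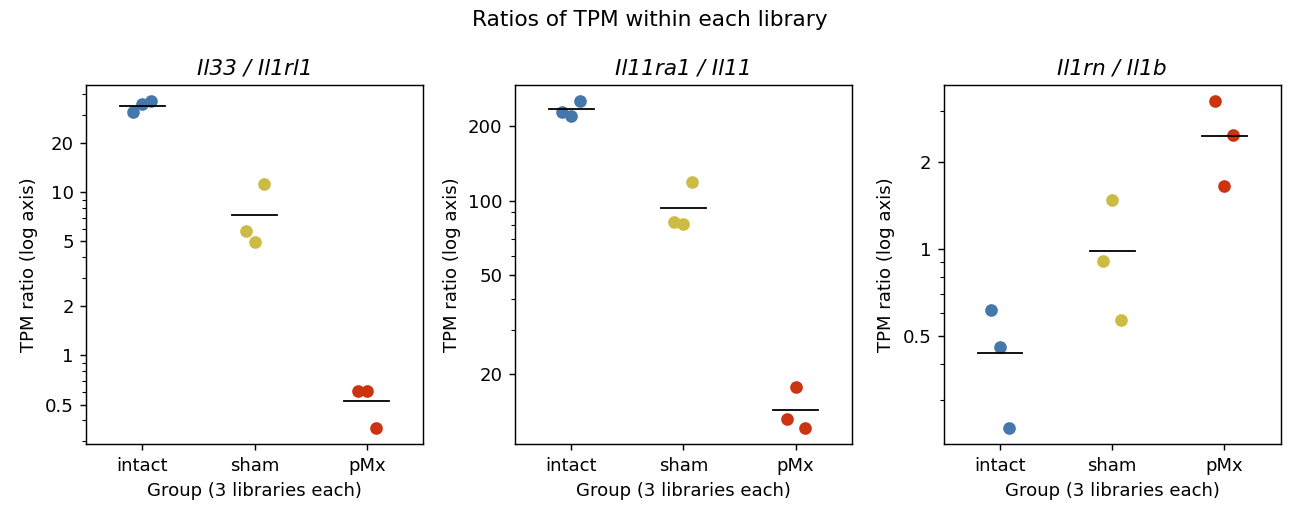
Ratio of TPM of 2 genes within each library, on log axes, by group, with a point for each library and a line at the group mean. The ratio of Il33 to Il1rl1 drops below 1 in all 3 pMx libraries, that of Il11ra1 to Il11 falls from over 200 in intact to under 20 in pMx, and that of Il1rn to Il1b is above 1 in all 3 pMx libraries.

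Apart from Il18, the other IL-1 ligands were less abundant than Il33 in every group. Il1b, the classical inflammatory member, was 2.80, 3.49 and 3.45 TPM in intact, 5.13, 5.01 and 5.15 in sham and 2.79, 5.57 and 4.28 in pMx. It passed in no comparison (0.53, adjusted p = 0.0993 for sham against intact, and -0.26, adjusted p = 0.310 for pMx against sham), although without pMx replicate 1 sham versus intact and pMx versus intact did (0.0425 and 0.0254). Its natural antagonist Il1rn, which occupies the IL-1 receptor without signaling, was 1.72, 1.60 and 0.83 TPM in intact, 4.64, 7.42 and 2.93 in sham and 9.03, 9.16 and 10.6 in pMx. The 3 groups did not overlap for Il1rn.

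Il1rn rose 3.61-fold from intact to sham (log2 fold change 1.28, standard error 0.27, adjusted p = 0.0203) and 1.92-fold from sham to pMx (0.89, standard error 0.27, adjusted p = 0.0305). The rise in pMx was lost without sham replicate 1 or 3 or any pMx library (adjusted p = 0.0678 to 0.0894), and that in sham without sham replicate 1 or 2 (0.0661 and 0.0538). The ratio of Il1rn to Il1b was 0.241 to 0.614 in intact, 0.569 to 1.48 in sham and 1.64 to 3.24 in pMx. Il36b, an agonist of the related receptor Il1rl2, ranged from 0.19 to 0.40 TPM in intact, 0.37 to 1.08 in sham and 1.08 to 1.78 in pMx (0.50 in pMx versus sham, adjusted p = 0.0454), where sham replicate 1 and pMx replicate 3 were equal. That call was lost without intact replicate 1 or 2, sham replicate 2 or 3 or any pMx library (adjusted p = 0.0526 to 0.147). Il1rn and Il36b overlap on opposite strands of the GRCr8 annotation. The study made the second cDNA strand with dUTP, but whether the counting used strand is not given in the sources used here. Reads of the 2 genes may therefore not be fully separate.

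Il18, an inducer of interferon gamma that is cut to its active form by caspase 1, was the second most abundant IL-1 ligand in intact and sham and the most abundant in pMx. It was 33.6, 24.5 and 24.6 TPM in intact, 43.5, 31.6 and 35.4 in sham and 39.5, 30.2 and 29.5 in pMx, and these ranges overlapped in every comparison (-0.15 in pMx versus sham, adjusted p = 0.528). Its binding protein Il18bp did differ. It was 29.6, 29.8 and 22.4 TPM in intact, 20.4, 29.5 and 22.5 in sham and 16.1, 15.5 and 13.1 in pMx, below every sham library, and fell 1.62-fold from sham to pMx (log2 fold change -0.65, standard error 0.16, adjusted p = 0.0125).

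Of 8 genes listed for the processing of IL-1 family cytokines, 3 fell in pMx versus sham and 5 did not pass, where 18.9% of all genes fell. Those that fell were Pycard, the inflammasome adaptor (-0.99), Casp1, the protease that cuts pro-IL-1 beta and pro-IL-18 (-0.89), and Casp4 (-0.47). Casp1 was 41.1, 35.1 and 36.9 TPM in sham and 19.4, 22.5 and 17.8 in pMx. Macrophages express these genes, and macrophage markers summed to 6987 to 7791 TPM in sham and 7922 to 8237 in pMx, after 2648 to 4510 in intact. In pMx versus sham 1 of the 9 was higher and 2 were lower, where 17.7% and 18.9% of all genes were. Their part in the result was not tested.

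Of the 8 receptors of the IL-1 family, 4 rose in pMx versus sham (Il18rap, Il1rap, Il1rl1 and Il1rl2) and none fell, where 17.7% of all genes rose and 18.9% fell. The calls of Il1rap and Il1rl2 were lost when single libraries were left out. Il1rl1 alone of the 8 passed in sham versus intact. Il18rap, the signaling chain of the IL-18 receptor, was 0.57, 0.39 and 0.29 TPM in intact, 1.32, 0.73 and 0.69 in sham and 2.91, 4.16 and 2.41 in pMx. The pMx libraries were all above the rest, a 3.46-fold rise over sham (log2 fold change 1.11, standard error 0.18, adjusted p = 0.00158). Its partner Il18r1 was 0.90 to 1.03 TPM in sham and 0.73 to 1.24 in pMx (-0.01, adjusted p = 0.950).

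Il1r1, the signaling receptor for IL-1, was 38.4, 38.7 and 28.8 TPM in intact, 27.9, 30.2 and 26.7 in sham and 22.9, 24.9 and 25.3 in pMx. Neither step passed (-0.30, adjusted p = 0.126; -0.21, adjusted p = 0.197), although pMx versus intact did (-0.51, adjusted p = 0.00601). Both steps passed without intact replicate 3 (0.00764 and 0.0285), a library that stands apart and is described at the end. Its accessory chain Il1rap was 9.92, 9.15 and 6.68 TPM in intact, 9.73, 11.1 and 8.60 in sham and 14.2, 14.1 and 13.8 in pMx. All pMx libraries lay above all others, and Il1rap rose 1.43-fold over sham (0.48, standard error 0.14, adjusted p = 0.0280); without sham replicate 1 or 3 or any pMx library the adjusted p was 0.0665 to 0.10.

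The decoy receptor Il1r2, which binds IL-1 without signaling and is rich in neutrophils, was 7.0, 3.19 and 2.01 TPM in intact, 2.95, 2.00 and 2.76 in sham and 0.59, 1.56 and 0.38 in pMx. Every pMx library was below every sham library, yet the comparison missed the threshold (log2 fold change -1.0, standard error 0.36, adjusted p = 0.0586), whereas pMx versus intact passed (-1.39, adjusted p = 0.0112). Without intact replicate 1, intact replicate 3 or pMx replicate 2 the fall from sham passed too (0.0167 to 0.0392), as it did with the smaller pseudocounts. Granulocyte markers summed to 68.4 to 201 TPM in intact, 42.5 to 51.9 in sham and 10.01 to 26.3 in pMx. Of the 8 markers, 1 was lower in pMx versus sham (Mpo) and 7 did not pass, while in pMx versus intact 6 were lower and 1 higher (Csf3r). Of all genes, 18.9% were lower in pMx versus sham, and 27.1% were lower and 23.4% higher in pMx versus intact. Elane, a neutrophil protease not among the largest changes of this list, was listed at 0 in all 3 pMx libraries. Mpo was the only marker of the list to pass against sham. The part of granulocytes in the Il1r2 result was not tested. Il1rl2, the IL-36 receptor, was 0.77 to 1.80 TPM in sham and 2.12 to 3.12 in pMx (0.66, adjusted p = 0.0223), a call lost without sham replicate 1, pMx replicate 1 or pMx replicate 2 (0.0523 to 0.0774).

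**Figure D3:**
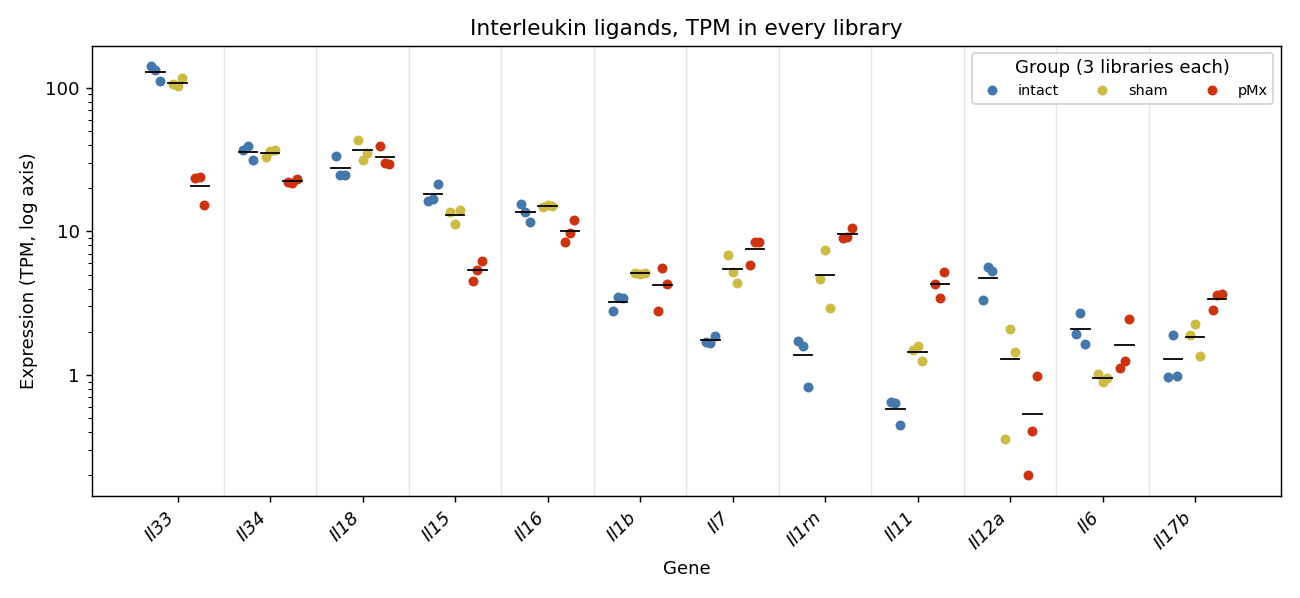
TPM of 12 interleukin ligands on a log axis, with a point for each of the 9 libraries coloured by group and a line at each group mean. The pMx points of Il33, Il34 and Il15 lie below all sham points, and those of Il11 and Il1rn lie above them.

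In the IL-6 family the ligand Il11 rose while all 5 receptor members fell in pMx versus sham, where 18.9% of all genes fell. The calls of Il6r, Il27ra and Il31ra were lost when single libraries were left out. IL-11 is made by fibroblasts and other stromal cells and acts through Il11ra1 paired with gp130. Il11 was 0.65, 0.64 and 0.45 TPM in intact, 1.49, 1.58 and 1.26 in sham and 4.33, 3.45 and 5.18 in pMx, and the groups did not overlap. It rose 2.49-fold from intact to sham (log2 fold change 0.63, standard error 0.13, adjusted p = 0.0196) and 2.99-fold from sham to pMx (1.11, standard error 0.13, adjusted p = 0.000315). The first of these was lost without sham replicate 1 or 2 (0.0684 and 0.0772).

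Il11ra1, the receptor chain specific to IL-11, was one of the most abundant receptors. It was 149, 141 and 113 TPM in intact, 122, 127 and 150 in sham and 57.1, 61.2 and 62.8 in pMx. Intact and sham overlapped throughout and pMx stood below both: a 2.20-fold fall from sham (-1.12, standard error 0.11, adjusted p = 0.000168). Ccl27 overlaps Il11ra1 on GRCr8. The ratio of Il11ra1 to Il11 was 221 to 252 in intact, 80.3 to 119 in sham and 12.1 to 17.7 in pMx.

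Il6st, which encodes gp130, the chain shared by most of the family, was the most abundant of all 59 members. Its levels were 276, 253 and 194 TPM in intact, 164, 173 and 153 in sham and 92.0, 111 and 108 in pMx, in 3 separate ranges. Il6st fell in both steps, by 0.55 on the log2 scale from intact to sham (adjusted p = 0.0327) and by 0.65 from sham to pMx (standard error 0.13, adjusted p = 0.00530). The fall in sham was lost when intact replicate 1 or 2, any sham library, pMx replicate 2 or pMx replicate 3 was left out (0.0504 to 0.0968), while that in pMx kept an adjusted p below 0.05 in each alternative fit.

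The remaining receptors of the family fell in pMx versus sham by smaller amounts on the log2(TPM + 1) scale. By the ratio of means, the rare Il31ra fell most of the family's receptors (3.24-fold), and Il27ra (2.06-fold) fell more than Il6st (1.57-fold). Il6r, the IL-6 binding chain, was 26.1, 22.2 and 17.9 TPM in intact, 26.4, 26.6 and 24.5 in sham and 17.9, 21.2 and 17.8 in pMx (-0.43, adjusted p = 0.0319). Il27ra and Il31ra were both below 1 TPM, at means of 0.797 and 0.313 TPM in sham and 0.387 and 0.0967 in pMx (-0.37 and -0.26, adjusted p = 0.0265 and 0.0216). All 3 calls depended on single libraries: that of Il6r was lost without any sham library, pMx replicate 1 or pMx replicate 3 (0.0614 to 0.0999), that of Il27ra without sham replicate 2 or 3 or pMx replicate 2 or 3 (0.0525 to 0.0935), and that of Il31ra without sham replicate 2 or 3 or pMx replicate 1 or 3 (0.0555 to 0.0738). Those of Il27ra and Il31ra were also lost after quantile normalization (0.212 and 0.0720), without a change of direction.

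Il6 itself was low. It was 1.93, 2.68 and 1.63 TPM in intact, 1.02, 0.90 and 0.95 in sham and 1.11, 1.25 and 2.47 in pMx. All sham libraries lay below all intact and all pMx libraries, but neither comparison passed (-0.64, adjusted p = 0.0667, and 0.38, adjusted p = 0.166). The first did without intact replicate 3 or pMx replicate 3 (0.0477 and 0.0269).

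Further cytokine ligands and receptors, some of them partners of gp130, were looked up from a list of 22 genes, of which 20 were tested. In pMx versus sham 3 rose and 3 fell, where 17.7% and 18.9% of all genes did. In sham versus intact 4 rose and 3 fell, where 6.73% and 5.97% of all genes did. The receptors Lifr (leukemia inhibitory factor) and Cntfr (ciliary neurotrophic factor) had the largest falls on the log2(TPM + 1) scale. Lifr was 48.7, 50.4 and 36.3 TPM in intact, 22.5, 23.0 and 22.8 in sham and 5.08, 5.06 and 4.12 in pMx (-0.94, adjusted p = 0.00538, then -2.05, adjusted p = 2.65e-05). Cntfr fell by 1.06 and then by 1.44 on the log2 scale. Sdc1, a heparan sulfate proteoglycan, rose by 1.25 on the log2 scale in pMx versus sham. In sham versus intact, Ebi3, the subunit that completes IL-27 and IL-35, rose most (1.57, adjusted p = 0.0206).

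Downstream of these receptors the listed genes were mixed. Of all genes, 17.7% rose and 18.9% fell in pMx versus sham, and 6.73% and 5.97% in sham versus intact. The lists were not tested against these shares. Of 11 Janus kinases and STATs, 2 rose (Jak2, 0.71, and Jak3, 0.69) and 2 fell in pMx versus sham, with Stat5b at -0.69, and Stat5b alone passed in sham versus intact (-0.44). Of 12 inhibitors of cytokine signaling, Socs3 (1.03) and Socs1 (0.99) rose and 3 fell, with Socs2 at -0.86; in sham versus intact 1 rose (Ptpn6, 0.66) and 3 fell. Of 9 genes listed as STAT3 responses, 5 rose and 3 fell in pMx versus sham. These included Timp1, an inhibitor of metalloproteinases (1.48), and in the other direction Fgl2, a prothrombinase (-3.09), and Hp, the hemoglobin-binding protein haptoglobin (-2.39). From intact to sham 2 rose (Lbp and Timp1, both 0.86) and 1 fell (Fgl2, -0.83).

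Of 17 adaptors and kinases of the IL-1 pathway, 2 rose and 2 fell in pMx versus sham, where 17.7% of all genes rose and 18.9% fell. The largest of these changes was Tab2 (0.35), and none of the 17 passed in sham versus intact with limma. Of 14 genes listed as NF-kB responses, 4 rose and 1 fell in pMx versus sham. Ptgs2, the inducible cyclooxygenase, was 1.16, 1.18 and 0.54 TPM in sham and 15.1, 6.30 and 18.5 in pMx (2.77, adjusted p = 0.000457). The collagenase Mmp13 (2.60) and the stromelysin Mmp3 (1.68) rose too, and the pathway's own inhibitor Nfkbia fell by 0.70 on the log2 scale. From intact to sham, Mmp13 rose (3.82) and Nfkbia fell (-0.44).

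The abundant ligands Il34 and Il16 fell in pMx versus sham and did not pass in sham versus intact. IL-34 is a stromal cytokine that shares the receptor Csf1r with CSF-1 and maintains macrophages. Il34 was 37.2, 39.6 and 31.2 TPM in intact, 32.8, 36.0 and 36.8 in sham and 22.1, 21.7 and 23.1 in pMx, 3 tightly spaced pMx values below all others. It fell 1.58-fold (-0.63, standard error 0.09, adjusted p = 0.000902). On GRCr8 the gene Rpl29l3 overlaps Il34, so reads may be shared. Csf1, the other ligand of that receptor, fell from a mean of 64.0 to 46.0 TPM (-0.47, adjusted p = 0.0114), while Csf1r was 163 to 199 TPM in sham and 146 to 190 in pMx (-0.12, adjusted p = 0.670); these 2 genes were named after their values were seen. Il16, a chemoattractant for CD4-positive cells, was 15.4, 13.7 and 11.7 TPM in intact, 14.85, 15.2 and 15.1 in sham and 8.44, 9.67 and 12 in pMx (-0.55, standard error 0.13, adjusted p = 0.0121).

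The common gamma chain ligands Il15 and Il7 went in opposite directions in pMx versus intact (log2 fold changes -1.59 and 1.63, limma adjusted p = 3.89e-05 and 8.71e-05). In each of the other comparisons only 1 of them passed. Il15, which sustains natural killer and memory CD8 T cells, was 16.3, 16.8 and 21.4 TPM in intact, 13.7, 11.3 and 14.2 in sham and 4.49, 5.37 and 6.21 in pMx. Its groups did not overlap, and it fell 2.44-fold from sham to pMx (-1.15, standard error 0.15, adjusted p = 0.000485), while sham versus intact missed the threshold (-0.44, adjusted p = 0.0816). Il7, a stromal survival factor for lymphocytes, was 1.71, 1.68 and 1.86 TPM in intact, 6.90, 5.22 and 4.38 in sham and 5.88, 8.42 and 8.41 in pMx. It rose 3.14-fold from intact to sham (1.22, standard error 0.17, adjusted p = 0.00572), and sham and pMx overlapped (0.40, adjusted p = 0.101, but 0.0417 and 0.0419 without sham replicate 1 or pMx replicate 1).

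Of the 10 receptors grouped here with that family, the IL-13 receptors Il13ra1 and Il13ra2 included, 3 rose in sham versus intact (Il21r, Il2ra and Il2rb). Of all genes, 6.73% rose. In pMx versus sham 2 rose (Il21r and Il2rg) and 1 fell (Il2ra), where 17.7% of all genes rose and 18.9% fell. Il21r was 2.70, 2.70 and 1.70 TPM in intact, 5.89, 4.89 and 3.93 in sham and 7.44, 9.60 and 7.99 in pMx, 3 ranges without overlap (0.81, adjusted p = 0.0226, then 0.67, adjusted p = 0.0169). The first call was lost without sham replicate 1 or 2 (0.0781 and 0.0784) and the second without sham replicate 3 or pMx replicate 2 (0.0636 and 0.0633). Il2rg, the shared chain, was 33.5, 35.0 and 28.7 TPM in intact, 43.5, 41.6 and 36.6 in sham and 50.4, 47.8 and 55.9 in pMx (0.33 in pMx versus sham, adjusted p = 0.0289, lost without sham replicate 2 or 3 or pMx replicate 1 or 3, at 0.0559 to 0.103).

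Both Il2ra and Il2rb, the IL-2 receptor chains of activated lymphocytes, rose from intact to sham. Il2ra had a mean of 0.787 TPM in intact, 1.54 in sham and 0.870 in pMx, and passed in both steps (0.50, adjusted p = 0.0475, then -0.45, adjusted p = 0.0325). Without any intact or sham library or pMx replicate 2, the first had an adjusted p of 0.0568 to 0.141, and without sham replicate 1 or 2 or pMx replicate 2 or 3, the second had 0.0644 to 0.107. After quantile normalization the second had 0.109. Il2rb was 0.43, 0.43 and 0.18 TPM in intact, 1.15, 1.08 and 0.95 in sham and 0.88, 0.87 and 0.86 in pMx (0.62 in sham versus intact, adjusted p = 0.00597, and -0.14, adjusted p = 0.258, from sham to pMx). Of 10 T and NK cell markers, 4 rose in sham versus intact, and the sum was 133 to 220 TPM in intact, 235 to 253 in sham and 165 to 208 in pMx, where 1 was higher than in sham (Cd8a), 1 lower (Cd3g) and 8 did not pass. B cell markers, by comparison, summed to 11.2 to 26.9, 7.32 to 10.7 and 2.04 to 3.23 TPM, with 4 of 5 lower in pMx versus sham. Of all genes, 6.73% rose in sham versus intact, and 17.7% were higher and 18.9% lower in pMx versus sham. The part of these lymphocytes in the receptor results was not tested.

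The receptors for IL-4 and IL-13 passed in neither pMx versus sham nor sham versus intact. Il4r was 40.8, 38.9 and 32.1 TPM in intact, 38.0, 36.0 and 35.2 in sham and 33.5, 33.3 and 30.9 in pMx (-0.16 in pMx versus sham, adjusted p = 0.218, but 0.0460 without intact replicate 3). Il13ra1 was 26.7, 25.7 and 20.4 TPM in intact, 29.2, 28.8 and 30.0 in sham and 28.0, 35.6 and 33.7 in pMx (0.13, adjusted p = 0.424), and it passed in pMx versus intact (0.41, adjusted p = 0.0189), a call lost without pMx replicate 2 or 3 (0.0707 and 0.0613). The decoy Il13ra2 was 3.14, 2.44 and 2.58 TPM in intact, 2.35, 3.50 and 3.05 in sham and 3.44, 3.11 and 3.48 in pMx, and the groups overlapped in every comparison (0.14 in pMx versus sham, adjusted p = 0.442).

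A list of 10 genes that IL-4 and IL-13 induce through STAT6 was checked beside them, and 6 could be tested. In pMx versus sham 2 rose and 3 fell, where 17.7% and 18.9% of all genes did. Ccl24 and Ccl11, the eotaxins that attract eosinophils, fell by 3.37 and 3.10 on the log2 scale, while Postn, a matrix protein of fibroblasts, rose by 1.68. In sham versus intact 2 rose, with Postn at 1.87, and 2 fell, with Ccl11 at -2.12, where 6.73% and 5.97% of all genes did. Fibroblast and lining markers summed to 10910 to 15571 TPM in intact, 20466 to 23764 in sham and 43647 to 47312 in pMx, with 4 of 8 higher, 2 lower and 2 not passing in pMx versus sham. These markers of the labelled tissue were high in all 9 libraries.

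**Figure D4:**
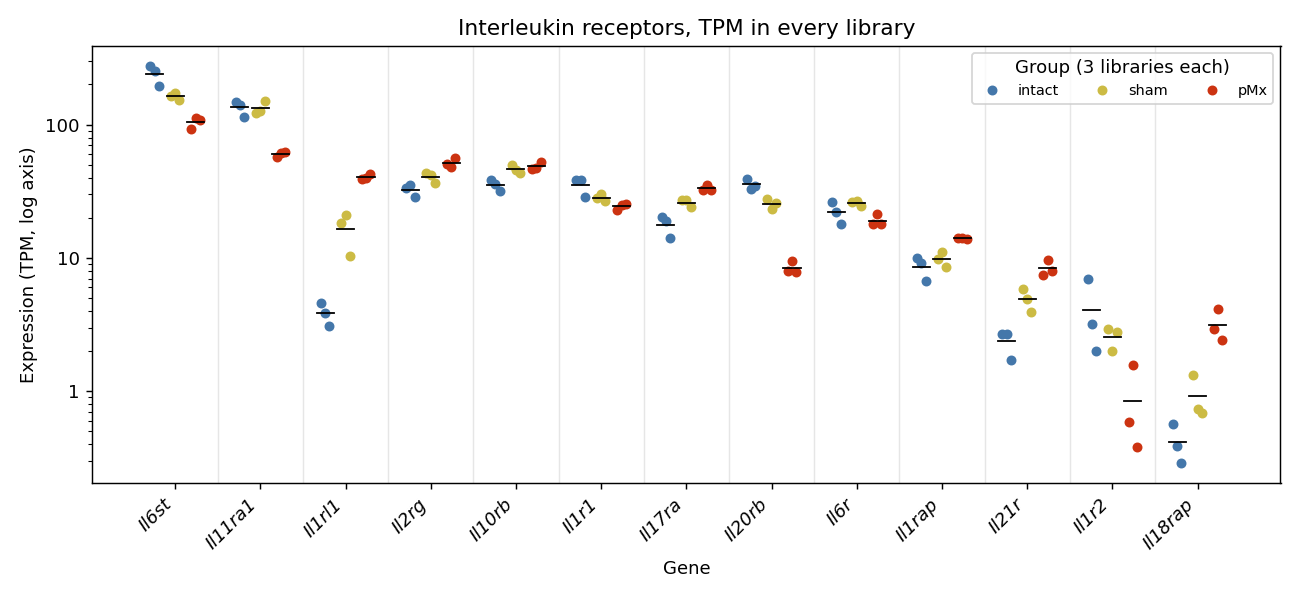
TPM of 13 interleukin receptors on a log axis, with a point for each of the 9 libraries coloured by group and a line at each group mean. The pMx points of Il11ra1, Il6st and Il20rb lie below all sham points, and those of Il1rl1, Il18rap and Il21r lie above them.

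Il20rb, the shared chain of the receptors for IL-19, IL-20 and IL-24, had the largest fall in pMx versus sham among the 37 receptors on the log2(TPM + 1) scale, which shrinks the change of rarer genes. By the ratio of means, the drop was larger for Il31ra (3.24-fold) and for Il1r2 (3.05-fold), whose difference did not pass. It was 39.1, 33.1 and 34.7 TPM in intact, 27.4, 23.2 and 25.9 in sham and 7.95, 9.50 and 7.83 in pMx, with no overlap between groups. It fell by 0.47 on the log2 scale from intact to sham (adjusted p = 0.0231) and by 1.49 from sham to pMx (standard error 0.10, adjusted p = 3.18e-05), a 3.03-fold drop. The first call was lost without intact replicate 1 or any sham library (0.0519 to 0.0876). Its partner chain Il20ra and the ligands Il20 and Il24 were among the genes left out for being at 0 in most libraries.

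Of the IL-10 receptor chains, Il10rb was 38.5, 36.0 and 31.7 TPM in intact, 50.2, 45.6 and 43.4 in sham and 46.6, 47.6 and 52.5 in pMx. It rose in sham versus intact (0.38, adjusted p = 0.0286, lost without intact replicate 2 or sham replicate 1 or 2, at 0.0676 to 0.0966) and overlapped between sham and pMx (0.07, adjusted p = 0.563). Il10ra was 12.6 to 22.1 TPM over all libraries and passed in neither step (0.44, adjusted p = 0.0571 from intact to sham, and 0.0234 without intact replicate 1). Il10 itself, an anti-inflammatory cytokine, was 0.16 to 1.01 TPM in sham and 0.05 to 0.07 in pMx (-0.57, adjusted p = 0.0458), and the call was lost without intact replicate 1, sham replicate 1 or 3 or any pMx library (0.0575 to 0.141) and after quantile normalization (0.0801). Il22ra1 and Il22ra2 did not exceed 0.06 TPM in any library.

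In the IL-12 family, Il12a, the p35 subunit of IL-12 and IL-35, was 3.31, 5.61 and 5.27 TPM in intact, 0.36, 2.10 and 1.44 in sham and 0.20, 0.41 and 0.99 in pMx. Every intact library was above every operated one. It fell 3.64-fold from intact to sham (-1.37, standard error 0.32, adjusted p = 0.0295), and sham and pMx overlapped (-0.54, adjusted p = 0.231, but 0.0436 without sham replicate 1). The fall in sham was lost without intact replicate 2, sham replicate 1 or 3 or pMx replicate 2 (0.0503 to 0.0883). The other subunits, Il12b and Il23a, were below 1 TPM in all libraries and passed in neither step.

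Of the 3 receptor chains of that family, all rare, 2 rose in sham versus intact, where 6.73% of all genes rose. Il12rb1 had a mean of 0.110 TPM in intact, 0.527 in sham and 0.653 in pMx (0.46 in sham versus intact, adjusted p = 0.0164, and 0.0663 without sham replicate 2). Il23r was 0.06 TPM in each intact library, 0.56, 0.40 and 0.69 in sham and 0.31, 0.31 and 0.18 in pMx. It rose in sham versus intact (0.54, adjusted p = 0.00607) and fell in pMx versus sham (-0.29, adjusted p = 0.0196, lost without sham replicate 1 or 3 or pMx replicate 3, at 0.0568 to 0.0673, and after quantile normalization, at 0.186).

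The ligands of the IL-17 family were scarce. Il17b had a mean of 1.84 TPM in sham and 3.38 in pMx (0.63, adjusted p = 0.0267), and its receptor Il17rb of 0.293 and 0.713 TPM (0.42, adjusted p = 0.0331), so that ligand and receptor both rose. The call of Il17b was lost without sham replicate 1 or 3 or pMx replicate 2 or 3 (0.0626 to 0.0968) and that of Il17rb without sham replicate 2 or 3 or pMx replicate 1 or 2 (0.0536 to 0.102). Pseudocounts of 0.1 and 0.01 also ended the Il17rb call (adjusted p = 0.0835 and 0.128), with log2 fold changes of 1.27 and 1.78. Il17d, a poorly understood member, fell in both steps, from 1.43 to 0.903 and 0.553 TPM (-0.35, adjusted p = 0.0433, then -0.29, adjusted p = 0.0356). Leaving out most single libraries removed these calls, with an adjusted p of 0.0577 to 0.125 in sham versus intact and 0.0549 to 0.124 in pMx versus sham, where it was 0.425 after quantile normalization.

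Il17ra, the chain shared by the IL-17 receptors, was 20.1, 19.0 and 14.1 TPM in intact, 27.0, 27.0 and 23.9 in sham and 32.5, 35.1 and 32.5 in pMx, 3 ranges without overlap. It rose in sham versus intact (0.54, adjusted p = 0.0276, lost without sham replicate 1 or 2, at 0.0917 and 0.0976), and pMx versus sham missed the threshold (0.35, adjusted p = 0.0540), which it passed without intact replicate 1 or 3 (0.0420 and 0.00351) and under either rescaling (0.0131 and 0.0185). Its partner Il17rc was 23.1, 24 and 18.6 TPM in intact, 26.3, 25.0 and 22.9 in sham and 21.7, 22.8 and 24.1 in pMx, and passed in no comparison. Il17f was at 0 in 6 of the 9 libraries.

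Il3ra, the binding chain of the IL-3 receptor and the only gene of the common beta chain family among the 59, was 20.2 to 26.7 TPM in intact, 21.0 to 24.5 in sham and 17.9 to 20.3 in pMx (-0.23 in pMx versus sham, adjusted p = 0.151, but 0.0401 without intact replicate 3). Il4i1 was 0.53 to 0.72 TPM in sham and 0.84 to 1.03 in pMx (0.29, adjusted p = 0.0685, but 0.0154 without intact replicate 3). Il27, Il1rapl1, Il12rb2, Il17rd, Il17re, Il15ra, Il7r and Il9r passed in neither pMx versus sham nor sham versus intact. On the GRCr8 annotation Il18 overlaps Bco2 and Tex12, Il17rb overlaps Actr8 and Chdh, Il6r overlaps She, Il27 overlaps Apobr, Il17rd overlaps Arhgef3, and Il4i1 overlaps Atf5 and Nup62, so reads of these genes too may not be fully separate.

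Over the whole table, 15644 to 16125 genes were above 0 TPM in a library, and Pearson correlations across genes were 0.954 to 0.996 within groups and 0.902 to 0.989 between them. Intact replicate 3 stood apart, with skeletal muscle markers summing to 37285 TPM against 52.6 to 2508 in the other libraries. Every call of a member in pMx versus sham was kept without it, Il1r1, Il1r2, Il17ra, Il3ra, Il4i1 and Il4r then passed as well, and no call in any comparison reversed under an alternative.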

How the data were processed

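RNA from 9 samples, 3 each of intact synovium, sham synovium and pMx regenerating tissue, was selected with oligo-dT beads, and the libraries were sequenced at BGI. The authors deposited TPM values from reads that, by the submitters' processing notes, were handled with HISAT2 2.0.4 on mRatBN7.2. The counting tool, annotation and filters are not given in the sources used here. TPM keeps no read numbers, so depth is unknown and precision is the spread between libraries.

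Groups and replicate numbers came from sample titles. The deposited TPM values were turned into log2(TPM + 1), and all 9 libraries were fitted with limma 3.58.1 in R 4.3.3 (lmFit, contrasts.fit, eBayes with a mean-variance trend) over the 16512 of 17602 genes above 0 in at least 3 libraries. Fold changes on this scale understate changes of genes near or below 1 TPM, and fold values in the text are ratios of mean TPM. The members and gene lists were chosen with earlier results of these data known. All 59 members matched the RefSeq gene table.

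Every member could be named, with values in every library for those past both thresholds, the 6 ligands and 8 receptors with the highest means, and a set of ligand and receptor pairs. From each gene list, the 3 genes with the largest change past the threshold were named, except that some genes are not reported here. Alternatives were quantile normalization or rescaling by median ratios, pseudocounts of 0.01 and 0.1, no low-value filter or a mean of at least 1 TPM, separate fits of 6 libraries, no trend, the replicate number as a block, both thresholds, an adjusted p below 0.01 and leaving out each library. The calculation was tested on simulated data.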

Additional observations from a re-analysis of the deposited data

How the results depend on the processing

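Of the 75 calls of members over the 3 comparisons, 41 held in every alternative fit that included the gene, 11 of 26 in pMx versus sham (Il11, Il11ra1, Il15, Il16, Il18bp, Il18rap, Il1rl1, Il20rb, Il33, Il34 and Il6st), 4 of 15 in sham versus intact (Il1rl1, Il23r, Il2rb and Il7) and 26 of 34 in pMx versus intact. The minimum mean of 1 TPM left out Il23r and Il2rb, and in pMx versus intact also Il12rb1, Il17d and Il36b, so those calls were not tried under it. No call reversed, and results that missed the threshold passed it 58 times over all alternatives, most often Il1r2 and Il17ra in pMx versus sham (8 and 7 alternatives). With the fold threshold added, 3 members were higher and 4 lower for pMx over sham, 3 and 1 for sham over intact and 6 and 7 for pMx over intact. With an adjusted p below 0.01, 3 were higher and 6 lower in pMx versus sham, and 4 and 0 in sham versus intact. The shares of all genes past the fold threshold are given above with the counts of each comparison. No share of all genes is given at 0.01, so the counts at 0.01 cannot be set against a background. Quantile normalization left 9 lower in pMx versus sham. Pseudocounts of 0.1 and 0.01 both ended the calls of Il17rb and Il36b in pMx versus sham, and of Il12a, Il17d and Il2ra in sham versus intact. The pseudocount of 0.01 alone also ended those of Il1rn, Il23r and Il2ra in pMx versus sham. The log2 fold changes of these lost calls were larger than in the main fit. For sham versus intact, the fit on 6 libraries left 6 higher and 0 lower in limma, where 6 had an unadjusted p below 0.05. Over all genes that fit called 406 higher and 281 lower, against 1112 and 985 in the main fit. Pseudocounts of 0.1 and 0.01 each left 2 members lower, with 874 and 817 of all genes lower. Leaving out each library in turn gave 4 to 13 higher and 8 to 19 lower for pMx over sham, and 4 to 12 higher and 0 to 6 lower in sham versus intact. Over all genes these fits called 2083 to 3628 higher and 2383 to 3854 lower for pMx over sham. In sham versus intact they called 384 to 1202 higher and 244 to 1937 lower.

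With the replicate block, 12 members were higher and 12 lower for pMx over sham, and 12 and 2 for sham over intact. Over all genes this fit called 2941 higher and 2960 lower for pMx over sham, against 2926 and 3120 in the main fit. For sham over intact it called 967 and 618, against 1112 and 985. With the block, Il18 passed in sham versus intact (0.41, adjusted p = 0.0159) and in pMx versus intact (0.26, adjusted p = 0.0124). The numbers were not taken to pair the samples, since same-numbered deviations of pMx and sham correlated across genes at 0.03, 0.37 and 0.48 and those of sham and intact at 0.00, -0.40 and -0.49, and not every sample correlated best with its own number. Precision rests on 3 libraries a group, and members under 1 TPM cannot be judged for counting error.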
